A study of Mus musculus with 9 samples.

Results

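Meox1 and 9 genes by which fibroblasts are recognised were examined in whole heart RNA of oxaliplatin-treated and vehicle-treated mice. The 10 genes were chosen by name, as Pdgfra, Tcf21, Dpep1, Postn, Pi16, Cd248, Thy1, Scara5 and Dpt with Meox1. They were selected on earlier results of the same hearts, in which the difference between oxaliplatin and vehicle was already known, so their differences are given as a description and carry no p-value. All 10 were among the 13795 gene symbols of the deposited table, and all 10 passed the filter on low values that left 13788 genes. The hearts compared were those of C57BL/6 mice given 10 mg/kg of oxaliplatin, a platinum-based chemotherapy drug (5 samples), and those of C57BL/6 mice given vehicle (4 samples). Treatment lasted 8 weeks and only RNA of high integrity was sequenced, and the labels give no sex or age and no further allele or agent. The labels call the samples separate without saying how they relate. The errors rest on the scatter of these samples, and the p-values set group differences against that scatter, part of which may be technical.

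Fibroblasts make and maintain the connective tissue between heart muscle cells. Resting cardiac fibroblasts carry the receptor PDGFRα, encoded by Pdgfra, and the transcription factor TCF21. After injury in mouse hearts some of them become activated, secrete matrix proteins such as periostin, and switch on Meox1, a homeobox transcription factor whose expression in mouse cardiac fibroblasts depends on TGF-beta signalling. Whole tissue was measured, so more fibroblasts and more RNA per fibroblast cannot be told apart in any value below.

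Levels are normalized counts, the authors' scaled read counts per gene. The smallest deposited library held 29.4 M normalized counts and the largest 36.9 M (M for mega), and low values lay on steps that put an estimated depth of between 28.5 M and 36.2 M reads behind each sample. Heart muscle markers were high in each sample. The 12 cardiomyocyte markers summed to between 1405380 and 1902840 normalized counts in oxaliplatin hearts and to between 1818360 and 2260450 in vehicle hearts, and none was at 0. Fibroblast RNA was present in each sample, since none of 16 other resting fibroblast markers was at 0 in any heart.

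Of the 10 genes, 6 were higher in oxaliplatin hearts at an adjusted p under 0.05 in limma over all genes (Postn, Meox1, Pi16, Cd248, Thy1 and Dpep1), and 0 were lower. The background was 9.23% of all genes tested called higher and 5.03% called lower. The other 4, Tcf21, Dpt, Scara5 and Pdgfra, did not pass. The median log2 difference of the 10 genes was 0.84, beside -0.02 over all genes tested. Since the genes were chosen with this contrast known, nothing is read from these counts. The groups did not overlap for Meox1, Postn and Pi16, where 8.99% of all genes tested had every oxaliplatin heart above every vehicle heart.

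**Figure D1:**
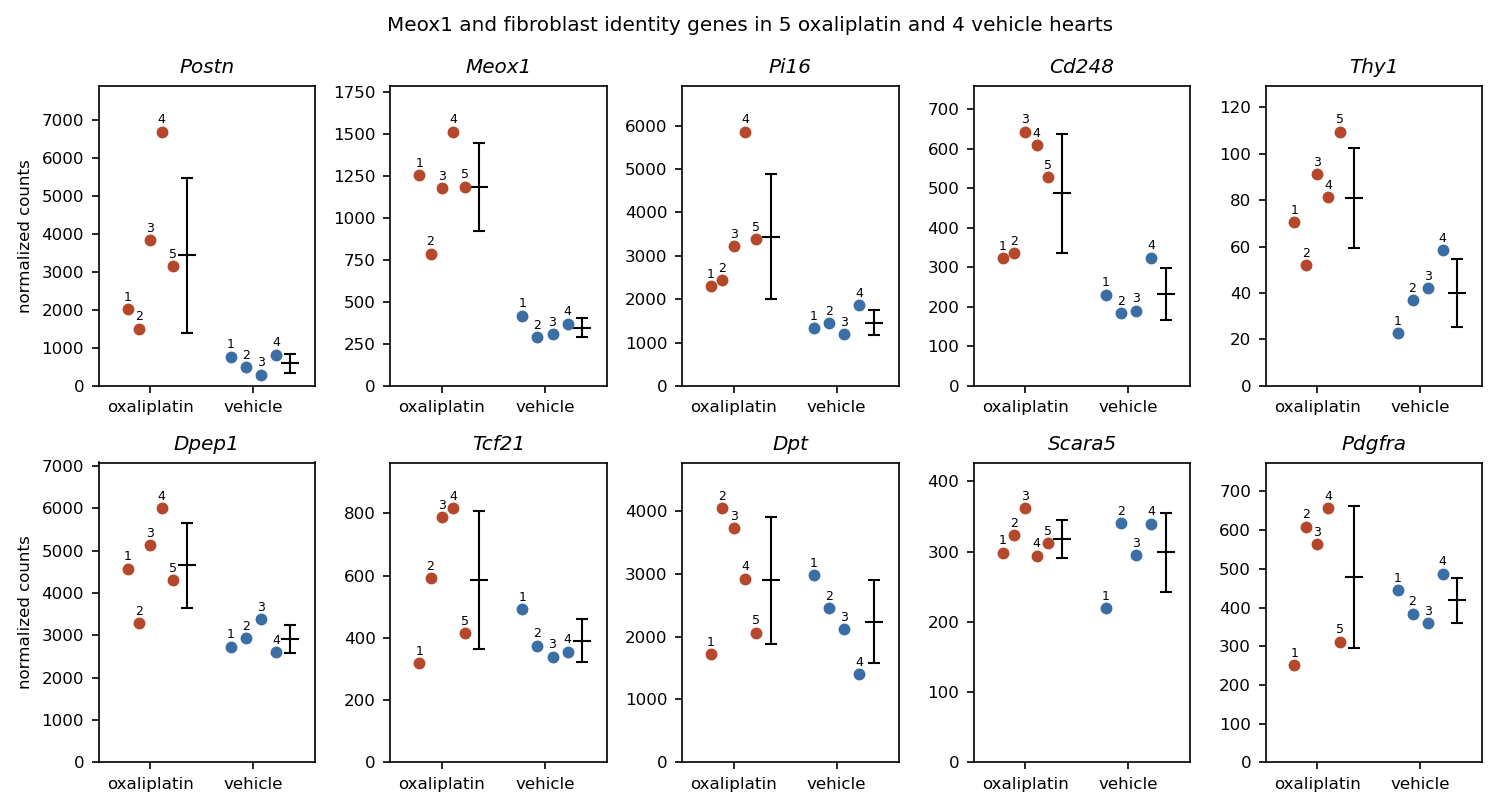
Normalized counts of each gene (vertical axes, starting at 0) in 5 oxaliplatin and 4 vehicle hearts. Each numbered point is a heart, the number being its replicate number, and the black bar is the mean ± SD of the group. Oxaliplatin hearts lie above all vehicle hearts for Postn, Meox1 and Pi16, and the groups lie over each other for Scara5 and Pdgfra.

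Meox1, on chromosome 11 from 101877510 to 101894374 of GRCm38 (minus strand), was 1 of the 3 genes whose groups did not overlap. It had 1256, 787, 1177, 1514 and 1187 normalized counts in oxaliplatin hearts 1 to 5, against 418, 292, 309.8 and 371 in vehicle hearts 1 to 4. The lowest oxaliplatin heart, oxaliplatin 2, was still above the highest vehicle heart. The means were 1184 ± 261 in oxaliplatin hearts and 348 ± 58.1 in vehicle hearts (SD, n = 5 and n = 4), with a log2 difference of 1.75 and a standard error of 0.17. Leaving out each sample in turn moved this difference between 1.65 and 1.89.

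Tcf21, a basic helix-loop-helix factor of resting cardiac fibroblasts, lies on chromosome 10 from 22817281 to 22820174 (minus strand). It had 319, 592, 787, 816 and 414 normalized counts in oxaliplatin hearts 1 to 5, against 492, 375, 339.9 and 356 in vehicle hearts 1 to 4. Oxaliplatin 1 was below every vehicle heart, and oxaliplatin 2, 3 and 4 were above every one. The log2 difference was 0.51 with a standard error of 0.26 and did not pass. Without oxaliplatin 1 it was 0.70 and passed, and without oxaliplatin 4 it was 0.36. Set against Tcf21 in the same heart, Meox1 had ratios of 1.33 to 3.94 in oxaliplatin hearts and of 0.777 to 1.04 in vehicle hearts, without overlap. Of 7 such within-heart ratios computed, the 3 of Meox1 to Pdgfra, Meox1 to Tcf21 and Postn to Pdgfra did not overlap between the groups. The other 4 did (Pi16 to Dpt, Thy1 to Scara5, Dpep1 to Tcf21 and Cd248 to Pdgfra). These pairs were drawn from genes chosen with the contrast known, and Meox1 and Postn did not overlap by themselves. The ratios are therefore a description, and nothing is read from their count.

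Pdgfra encodes the receptor tyrosine kinase for PDGF ligands and lies on chromosome 5 from 75152292 to 75198215 (plus strand). In oxaliplatin hearts 1 to 5 it had 252, 609, 563, 657 and 312 normalized counts, against 445, 385, 359 and 488 in vehicle hearts 1 to 4. Oxaliplatin hearts 1 and 5 lay below all vehicle hearts and the other 3 above all of them, so the vehicle range lay within the oxaliplatin range. The log2 difference was 0.10 with a standard error of 0.27. It was -0.038 without oxaliplatin 4 and -0.0105 without oxaliplatin 2. The ratio of Meox1 to Pdgfra within a heart was 4.98, 1.29, 2.09, 2.31 and 3.805 in oxaliplatin hearts 1 to 5, against 0.941, 0.758, 0.862 and 0.760 in vehicle hearts 1 to 4. These ratios are of counts not scaled to gene length, so they compare hearts and not the levels of the 2 genes. Annotated exons of Pdgfra are overlapped by the antisense gene Gm42802, by Gm42803 and by Mir7025, and those of Pi16 by the antisense gene AC162182.1. Whether counting used strand is not known here, and reads of such partners cannot be told apart from those of Pdgfra and Pi16.

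Among surface and secreted proteins, periostin had the largest log2 difference of the 10 genes. Postn, on chromosome 3 from 54361109 to 54391037 (plus strand), encodes a matrix protein that binds integrins and marks activated fibroblasts in injured mouse hearts. It had 2016, 1506, 3838, 6699 and 3162 normalized counts in oxaliplatin hearts 1 to 5, against 774, 493, 300.1 and 824 in vehicle hearts 1 to 4. All oxaliplatin hearts were above all vehicle hearts, and within the oxaliplatin group the highest heart had 4.45 times the lowest. The means were 3444 ± 2039 in oxaliplatin hearts and 598 ± 246 in vehicle hearts, and the log2 difference was 2.44 with a standard error of 0.48.

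Pi16, peptidase inhibitor 16, marks fibroblasts of the adventitia and lies on chromosome 17 from 29317680 to 29330593 (plus strand). It had 2300.1, 2434, 3226, 5862 and 3391 normalized counts in oxaliplatin hearts 1 to 5, against 1329, 1451, 1190.4 and 1856 in vehicle hearts 1 to 4. Again no vehicle heart reached the lowest oxaliplatin heart, and oxaliplatin 4 stood highest. The log2 difference was 1.17 with a standard error of 0.25, and 0.96 without oxaliplatin 4.

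Cd248, endosialin, is a transmembrane glycoprotein of fibroblasts and pericytes, encoded on chromosome 19 from 5068078 to 5070682 (plus strand). It had 324, 336, 643, 609.6 and 527 normalized counts in oxaliplatin hearts 1 to 5, against 231, 183, 190.4 and 325 in vehicle hearts 1 to 4. Oxaliplatin 1 lay just under vehicle 4, and the other 4 oxaliplatin hearts were above all vehicle hearts. Its log2 difference was 1.05 with a standard error of 0.24, and it did not pass without vehicle 3 (0.96).

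Thy1, a lipid-anchored surface glycoprotein that T cells of the mouse also carry, lies on chromosome 9 from 44043384 to 44048579 (plus strand). It was the lowest of the 10 genes, with 70.5, 52.0, 91.1, 81.3 and 109.4 normalized counts in oxaliplatin hearts 1 to 5, against 22.7, 36.9, 41.9 and 58.5 in vehicle hearts 1 to 4. Only oxaliplatin 2 fell within the vehicle range. These values rest on an estimated 59 to 122 reads in oxaliplatin hearts and 19 to 58 reads in vehicle hearts. The log2 difference was 1.03 with a standard error of 0.30. The call ended when vehicle 1, 2 or 3 or oxaliplatin 3, 4 or 5 was left out (log2 differences 0.79 to 1.08 in these fits). The 2 T cell markers in the table, Cd4 and Trac, had log2 differences of 0.52 and -0.49 and neither passed, and their part in the Thy1 values was not tested.

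Dpep1, a membrane dipeptidase, lies on chromosome 8 from 123186242 to 123201812 (plus strand). It had 4574, 3283, 5128, 6003 and 4298 normalized counts in oxaliplatin hearts 1 to 5, against 2734, 2936, 3376 and 2609 in vehicle hearts 1 to 4. Oxaliplatin 2 lay below vehicle 3, and otherwise the groups were apart. Its log2 difference of 0.66 had a standard error of 0.16, the smallest of the 6 that passed.

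Dpt encodes dermatopontin, a small collagen-binding matrix protein, on chromosome 1 from 164796644 to 164824266 (plus strand). It had 1718, 4038, 3719, 2922 and 2062 normalized counts in oxaliplatin hearts 1 to 5, against 2973, 2454, 2116 and 1406 in vehicle hearts 1 to 4. The groups overlapped, with oxaliplatin 1, 4 and 5 inside the vehicle range and oxaliplatin 2 and 3 above it. Its log2 difference of 0.35 had a standard error of 0.29.

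Scara5, a scavenger receptor that takes up ferritin, lies on chromosome 14 from 65666403 to 65764826 (plus strand) and varied least in oxaliplatin hearts. It had 299, 323, 362, 294 and 312 normalized counts in oxaliplatin hearts 1 to 5, against 219.9, 341, 295 and 339.9 in vehicle hearts 1 to 4. Its coefficient of variation was 8.49% in oxaliplatin hearts and 19.0% in vehicle hearts. A log2 difference of 0.11 was found, with a standard error of 0.15, and -0.032 without vehicle 1.

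**Figure D2:**
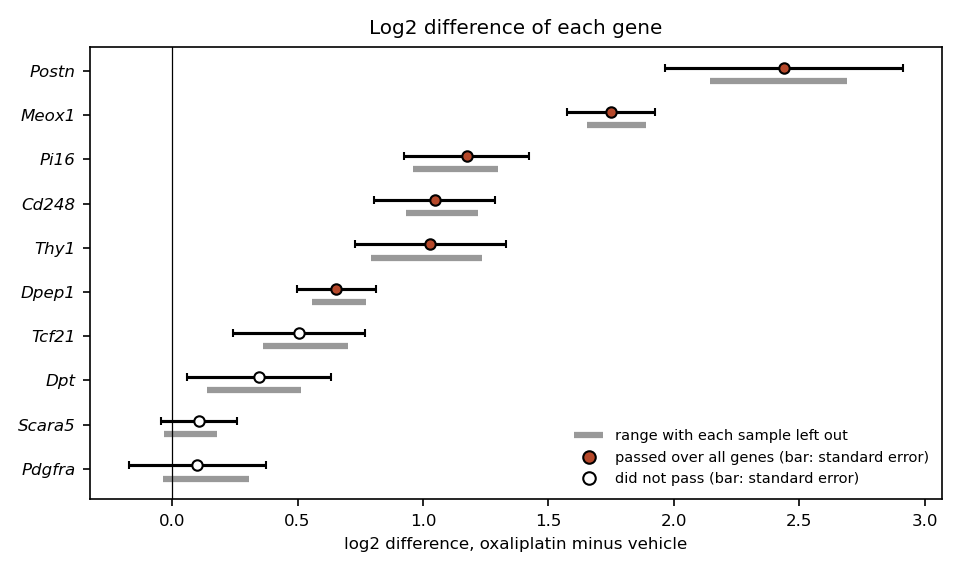
Log2 difference of each gene, oxaliplatin minus vehicle (horizontal axis), with its standard error as a black bar; filled points passed over all genes and open points did not. Grey bars give the range when each of the 9 samples is left out in turn, which crosses 0 for Scara5 and Pdgfra and has its lowest value at 1.65 for Meox1.

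Per kilobase of annotated exon, the scale on which genes can be compared, the 10 genes spanned a wide range. In oxaliplatin hearts the order of mean normalized counts per kilobase was Dpep1 (1873), Dpt (1677), Pi16 (541), Meox1 (532), Postn (396), Tcf21 (249), Cd248 (187), Scara5 (52.2), Pdgfra (47.7) and Thy1 (27.0). In vehicle hearts it was Dpt (1298), Dpep1 (1172), Pi16 (229), Tcf21 (166), Meox1 (156), Cd248 (89.2), Postn (68.7), Scara5 (49.0), Pdgfra (41.8) and Thy1 (13.4). Most neighbours in these orders had overlapping sample ranges. The exceptions in oxaliplatin hearts were Dpt above Pi16 and Cd248 above Scara5, and in vehicle hearts Dpep1 above Pi16, Meox1 above Cd248 and Pdgfra above Thy1. Postn ranked 5 of 10 in oxaliplatin hearts and 7 of 10 in vehicle hearts. The Pdgfra exons annotated add up to 10.0 kilobases, so its level per kilobase depends on how much of that length the heart transcript uses.

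Promoter sequences were looked up for all 10 genes in RefSeq (GRCm38.p6), where windows for 6 were found (Dpt, Postn, Pdgfra, Dpep1, Tcf21 and Pi16, with a pair of starts for Postn). The 250 bases before each start were searched on both strands for 6 short motifs. These were TAATTA, the core of homeobox sites, CAGCTG, an E-box of the kind bHLH factors such as TCF21 bind, TGANTCA for AP-1, CAGACA for SMAD proteins, GGAATG for TEAD and TATAAA, the TATA box. The 3 windows that held a match are printed 5′ to 3′ on the gene strand, here plus for each, ending at the base before the start, with the match in capitals. They are chr3:54360857-54361106 for Postn, chr8:123185985-123186234 for Dpep1 and chr1:164796413-164796662 for Dpt.
Postn: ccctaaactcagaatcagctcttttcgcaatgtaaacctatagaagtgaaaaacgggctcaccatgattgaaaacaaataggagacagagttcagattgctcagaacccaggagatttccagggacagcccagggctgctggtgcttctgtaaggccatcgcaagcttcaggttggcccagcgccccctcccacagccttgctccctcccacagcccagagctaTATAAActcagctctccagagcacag
Dpep1: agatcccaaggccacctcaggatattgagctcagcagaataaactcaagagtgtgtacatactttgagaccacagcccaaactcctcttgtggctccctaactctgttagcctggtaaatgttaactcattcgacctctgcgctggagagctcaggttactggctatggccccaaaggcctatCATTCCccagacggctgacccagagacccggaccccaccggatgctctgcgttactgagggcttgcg
Dpt: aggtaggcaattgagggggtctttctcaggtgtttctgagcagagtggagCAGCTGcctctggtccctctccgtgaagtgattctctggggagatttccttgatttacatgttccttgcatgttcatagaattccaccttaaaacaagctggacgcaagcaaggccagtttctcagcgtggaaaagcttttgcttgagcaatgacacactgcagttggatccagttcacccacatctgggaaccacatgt

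In Postn the TATA box lay 26 to 21 bases before the start, a motif present in 12.4% of 32851 mouse promoter windows of the same length. In Dpep1 the TEAD letters lay on the other strand 67 to 62 bases before the start (12.6% of all windows), and in Dpt the E-box lay 200 to 195 bases before it (13.0%). The homeobox core, AP-1 and SMAD letters, found in 4.84%, 6.75% and 17.1% of all windows, were in none of the 7 windows. No match says only that these letters are not in this window.

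Hearts of one group varied in a patterned way, described here by the deviation of each gene's log2 level from its group mean in the 9 hearts. Such correlations share libraries and depth and are given without a test. Pdgfra and Tcf21 deviated together (Pearson r = 0.891), and so did Tcf21 and Dpt (0.764). A second set ran together around periostin, with Pi16 (0.871), Cd248 (0.845) and Meox1 (0.804). The sets were not cleanly apart. Tcf21 had values of 0.561 with Postn, 0.527 with Cd248 and 0.525 with Pi16, and Pdgfra one of 0.521 with Pi16. Within the second set Meox1 had 0.589 with Cd248 and 0.585 with Pi16. Dpt had -0.027 with Postn, -0.067 with Cd248 and -0.076 with Pi16. Meox1 and Pdgfra had a correlation of -0.029 and Meox1 and Dpt one of -0.314. Oxaliplatin 4 had the highest level of 6 of the 10 genes, and vehicle hearts the highest level of none. Oxaliplatin 2 was the lowest of its group for Meox1, Dpep1, Postn and Thy1 and the highest for Dpt.

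**Figure D3:**
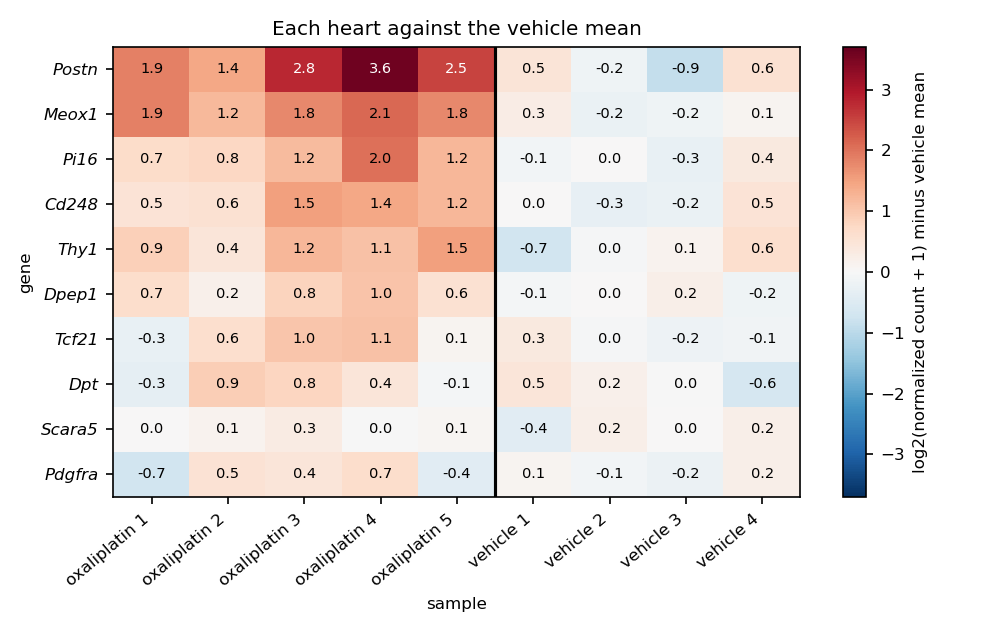
Log2(normalized count + 1) of each gene (rows) in each heart (columns), minus the mean of the vehicle hearts; the vertical line parts oxaliplatin hearts on the left from vehicle hearts on the right. Meox1 and Postn are positive in all 5 oxaliplatin hearts, while Pdgfra is negative in oxaliplatin 1 and 5 and positive in the other 3.

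**Figure D4:**
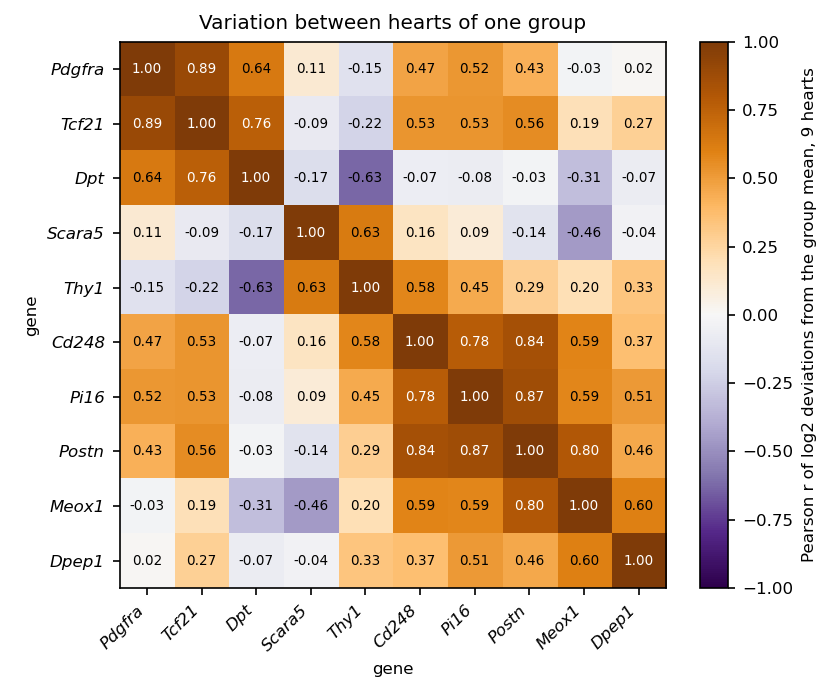
Pearson correlation of the deviations of log2 levels from the group mean over 9 hearts, for each pair of the 10 genes (rows and columns). One block holds Pdgfra, Tcf21 and Dpt (0.638 to 0.891) and another Cd248, Pi16 and Postn (0.777 to 0.871), and Meox1 has a value of 0.804 with Postn. Between the blocks Tcf21 has values of 0.525 to 0.561 with Pi16, Cd248 and Postn.

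Atrial marker RNA differed between the hearts. The score of 8 atrial markers, their mean log2 level centred over all samples, was -4.00, 3.39, 1.17, 2.92 and -1.57 in oxaliplatin hearts 1 to 5 and 2.61, -1.44, -2.38 and -0.68 in vehicle hearts 1 to 4. The summed markers ran from 27960.3 to 850382 normalized counts in oxaliplatin hearts and from 12682 to 391183 in vehicle hearts, and Bmp10 was at 0 in at least 1 heart. The oxaliplatin hearts of low score, 1 and 5, are those in which Pdgfra, Tcf21 and Dpt were lowest. In vehicle hearts the heart of highest score had the most Tcf21 and Dpt, though not the most Pdgfra. Without the 3 hearts of highest score (oxaliplatin 2 and 4 and vehicle 1) the log2 difference was 1.90 for Meox1, 2.55 for Postn, 0.99 for Pi16, 1.09 for Cd248 and 0.65 for Dpep1, all still past the threshold. It was 0.97 for Thy1, which did not pass, 0.40 for Tcf21, 0.28 for Dpt, -0.20 for Pdgfra and -0.00568 for Scara5. The part of atrial tissue in the pattern of Pdgfra, Tcf21 and Dpt was not tested.

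The genes whose log2 levels followed Meox1 most closely over the 9 hearts were the actin-binding transgelin family member Tagln2 (Pearson r = 0.997), the adhesion molecule Mcam (0.987), the calcium-binding protein S100a11 (0.986), the membrane protein Emp1 (0.986) and the actin nucleation subunit Arpc1b (0.985). This measure includes the difference between the groups. Among the 10 genes Postn came closest to Meox1 (0.949), then Pi16 (0.890), Dpep1 (0.879), Cd248 (0.872) and Thy1 (0.780), with Pdgfra at 0.102. After subtraction of each group mean those among the closest were Tagln2 (0.961), the collagen crosslinking enzyme Lox (0.953), Rabep2 (0.928) and Zfp687 (0.917). Tagln2 headed both lists. It had 7824 ± 1451 normalized counts in oxaliplatin hearts and 2906 ± 262 in vehicle hearts (log2 difference 1.41, standard error 0.15). Because Tagln2 was picked for its likeness to Meox1, whose groups do not overlap, this difference is a description and carries no p-value. Rabep2 and Zfp687 did not pass and had log2 differences of 0.08 and 0.03.

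Other fibroblast genes were read from lists that do not hold the 10 genes. All lists were also chosen with earlier results of these hearts known. Their counts, medians and p-values therefore describe these samples and are no separate support. Some genes stand in several lists, among them Fn1, Tnc, Lox, Pdgfrb and Wt1, so the lists are not separate observations. Of 16 other resting fibroblast markers, 3 rose, 0 fell and 13 did not pass, with a median log2 difference of 0.36 beside -0.02 over all genes. Those that rose were Mfap5, a microfibril protein (log2 difference 2.29, limma adjusted p = 0.00759), the procollagen processing enhancer Pcolce (1.01, adjusted p = 0.00605) and the complement inhibitor Serping1 (1.04, adjusted p = 0.00674). Mfap5 had 3981, 2343, 4317, 12072 and 4650 normalized counts in oxaliplatin hearts 1 to 5, against 1045, 975, 727 and 1134 in vehicle hearts 1 to 4, so the groups were apart. The proteoglycan decorin, Dcn, did not pass (log2 difference 0.36, limma adjusted p = 0.289), nor did lumican, Lum (0.35), or gelsolin, Gsn (-0.05). Without oxaliplatin 1, 7 markers of the list rose.

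Of 9 adventitial fibroblast markers, the class to which Pi16 belongs, 4 rose, 0 fell and 5 did not pass, with a median of 0.99. Anxa3, an annexin, rose by 1.28 (limma adjusted p = 8.39e-04), the sialomucin Cd34 by 0.99 (adjusted p = 0.00174), Ly6a, a surface protein of mouse progenitor and endothelial cells, by 1.29 (adjusted p = 0.00686) and the complement regulator Cd55 by 1.03 (adjusted p = 0.0158; 0.0589 without vehicle 3). Cd34 and Ly6a are also made by endothelium. Of 10 endothelial markers, 2 rose, Pecam1 (1.33) and Esam (1.07), and 0 fell, and the summed level of the list was 20918 to 35792 normalized counts in oxaliplatin hearts and 18047 to 18953 in vehicle hearts, with no marker at 0. The part of endothelium in these values was not tested. Endothelial markers that rose numbered 4 without oxaliplatin 2, and 6 without the 3 hearts of highest atrial score.

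Of 22 activated fibroblast markers, 9 rose, 0 fell and 13 did not pass, and the median was 1.12. Fibronectin, Fn1, had 1289, 1493, 2524, 3933 and 2142 normalized counts in oxaliplatin hearts 1 to 5, against 574, 481, 392 and 676 in vehicle hearts 1 to 4 (log2 difference 2.01, standard error 0.30, limma adjusted p = 0.00290). Each oxaliplatin heart was above each vehicle heart. The calcium-binding matrix protein Sparc rose by 1.76, tenascin C, Tnc, by 2.13 and Cthrc1, a secreted protein of activated fibroblasts, by 2.53 (limma adjusted p = 0.00266, 0.00693 and 0.00715). The markers that carry the name of the activated state in other tissues did not all pass: smooth muscle actin, Acta2, had a log2 difference of 0.98 (limma adjusted p = 0.146), the collagen gene Col1a1 one of 0.97 (0.204) and fibroblast activation protein, Fap, one of 0.20 (0.729). Only 5 of the list rose without vehicle 2 and 5 without vehicle 3.

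**Figure D5:**
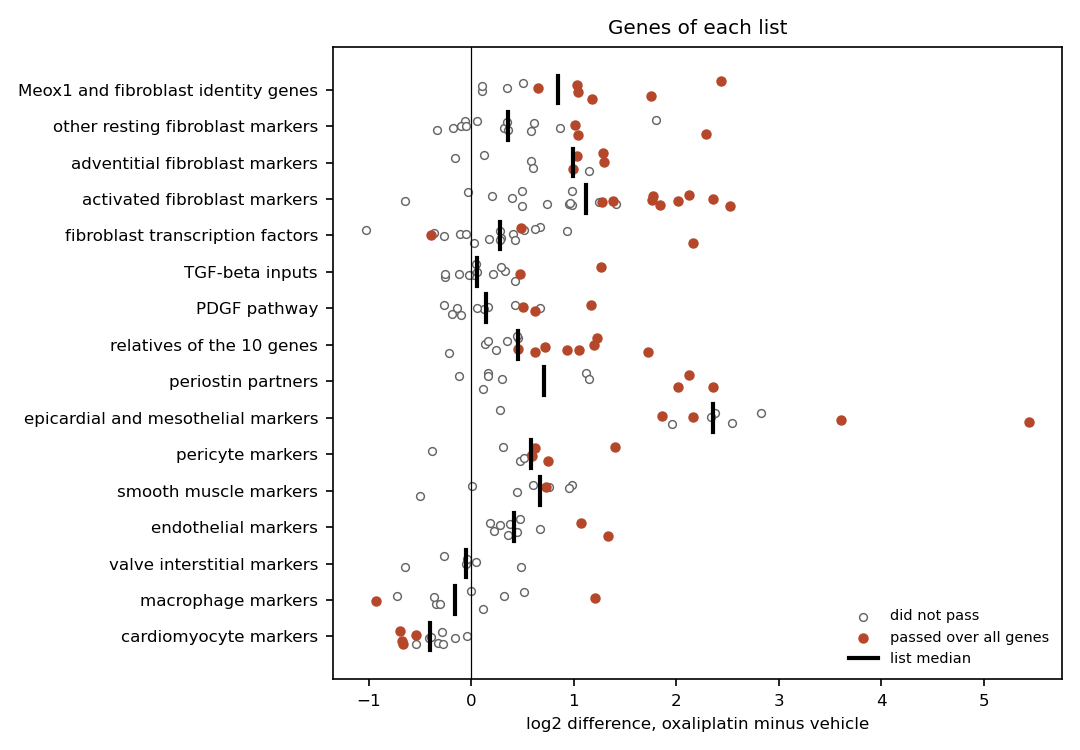
Log2 differences, oxaliplatin minus vehicle (horizontal axis), of the 10 genes in the top row and of the genes of 15 lists below it; filled points passed over all genes and black bars are list medians. Activated and adventitial fibroblast markers have medians of 1.12 and 0.99, and other resting fibroblast markers one of 0.36.

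Transcription factors and signals of fibroblasts came next. Of 19 fibroblast transcription factors measured of 24 listed, 2 rose, 1 fell and 16 did not pass (median 0.28), shares near the 9.23% higher and 5.03% lower of all genes. Leaving out oxaliplatin 2 gave 4 that rose, against 1 without oxaliplatin 3, 4 or 5 or vehicle 1, 2 or 3. The number that fell was 2 without vehicle 1, and 0 without oxaliplatin 1, 2, 3 or 4 or vehicle 2, 3 or 4. Wt1, the Wilms tumour factor of the epicardium, had 676, 202, 383, 511 and 686 normalized counts in oxaliplatin hearts 1 to 5, against 98.0, 102.8, 124.8 and 77.7 in vehicle hearts 1 to 4 (log2 difference 2.17, limma adjusted p = 0.00211). All 5 oxaliplatin hearts were above all vehicle hearts. The Notch target Heyl had a log2 difference of 0.48 and the mesenchymal homeobox factor Prrx1 one of -0.39, near the threshold (limma adjusted p = 0.0440 and 0.0408). Heyl passed only in the fits without oxaliplatin 1 or 2 when 1 sample was left out (adjusted p 0.0659 to 0.112 in the other 7), and Prrx1 only in those without oxaliplatin 5 or vehicle 1 (0.0572 to 0.0967 in the other 7). The close relative of Meox1, Meox2, had 1055, 488, 1099, 714 and 1314 normalized counts in oxaliplatin hearts 1 to 5, against 642, 623, 728 and 588 in vehicle hearts 1 to 4. It overlapped between the groups and did not pass (log2 difference 0.45, limma adjusted p = 0.254).

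Of 13 genes in a list made mainly of TGF-beta signalling, 2 rose, 0 fell and 11 did not pass (median 0.05). Smad7, an inhibitor that TGF-beta signalling itself induces, had 422, 248, 281, 481 and 413 normalized counts in oxaliplatin hearts 1 to 5, against 138.6, 113.9, 147.4 and 205 in vehicle hearts 1 to 4 (log2 difference 1.27, limma adjusted p = 0.00327). No vehicle heart reached the lowest oxaliplatin heart. Skil rose by 0.48 (limma adjusted p = 0.0451) and kept its call in the fits without oxaliplatin 1 or 5 only among those with 1 sample left out (0.0622 to 0.123 in the other 7).

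The PDGF pathway was measured in full, with 12 of 12 genes in the table, of which 3 rose, 0 fell and 9 did not pass (median 0.14). Among ligands Pdgfd rose, with 820, 574, 791, 663 and 837.5 normalized counts in oxaliplatin hearts 1 to 5, against 268, 345, 383 and 313 in vehicle hearts 1 to 4 (log2 difference 1.17, limma adjusted p = 8.39e-04). The groups were apart. Pdgfd signals through PDGFRβ. The ligand genes Pdgfa, Pdgfb and Pdgfc had log2 differences of -0.18, 0.12 and 0.67 and did not pass (limma adjusted p = 0.434, 0.735 and 0.228). Among receptors Pdgfrb, carried by pericytes and fibroblasts, rose by 0.62 (adjusted p = 0.0198), while Pdgfra did not pass. The call for Pdgfrb ended without oxaliplatin 3 (limma adjusted p = 0.0501), vehicle 2 (0.0569) or vehicle 3 (0.0760), and the adaptor Shc1 (log2 difference 0.51, adjusted p = 0.0354) passed only in the fits without oxaliplatin 1 or 2 or vehicle 4 when 1 sample was left out (0.0502 to 0.120 in the other 6). In each of the 3 fits in which Pdgfrb lost its call, 1 gene of the list rose.

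Of 10 matrix and receptor partners of periostin, 3 rose, Fn1, Tnc and Lox, and 0 fell (median 0.71). All of these 3 are also counted among the activated fibroblast markers that rose. Lox rose by 2.36 (limma adjusted p = 0.0158; 0.0579 without vehicle 2 and 0.0616 without vehicle 3). The integrin chains did not pass, with log2 differences of 0.30 for Itgav, 1.12 for Itgb3 and -0.12 for Itgb5, nor did Tgfbi, the relative of Postn (0.16). Of 15 measured relatives of the 10 genes, 8 rose and 0 fell (median 0.46). They include Clec14a (1.72, limma adjusted p = 0.00337) and Cd93 (0.72, adjusted p = 0.00243), endothelial relatives of Cd248, and Glipr2 (1.05, adjusted p = 0.00460) and Crispld1 (0.94, adjusted p = 0.0182; 0.0563 without vehicle 3), relatives of Pi16. The number was 5 without oxaliplatin 3, 5 without vehicle 2 and 3 without vehicle 3.

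Markers of other cell types that the tissue holds were read in the same way. Of 10 epicardial and mesothelial markers, 4 rose, among them keratin 19, Krt19, with 1733, 523, 1135, 1651 and 2486 normalized counts in oxaliplatin hearts 1 to 5, against 64.5, 37.98, 18.3 and 17.1 in vehicle hearts 1 to 4 (log2 difference 5.44, limma adjusted p = 8.39e-04). The others were Wt1, mesothelin, Msln (3.61, adjusted p = 0.0122) and Krt18 (1.86, adjusted p = 0.0337). The call for Krt18 ended without oxaliplatin 4 or 5 or vehicle 2, 3 or 4 (limma adjusted p 0.0566 to 0.105). Their list summed to 2755 to 5472 normalized counts in oxaliplatin hearts and to 306 to 1097 in vehicle hearts, with Krt8 and Muc16 at 0 in at least 1 heart, and 8 rose without vehicle 1. Tcf21 is made by epicardial cells as well as fibroblasts. Of 9 pericyte markers, 4 rose (Higd1b, Colec11, Pdgfrb and Vtn, with log2 differences of 1.40, 0.75, 0.62 and 0.59) and 0 fell. Abcc9 had a log2 difference of -0.38 and did not pass. The number that rose was 2 without oxaliplatin 3, vehicle 2 or vehicle 3, and 6 without oxaliplatin 2. Without oxaliplatin 3, 1 pericyte marker fell. Vtn passed only in the fits without oxaliplatin 1 or 2 when 1 sample was left out (limma adjusted p 0.0565 to 0.110 in the other 7). Pericyte markers summed to 13219 to 25330 normalized counts in oxaliplatin hearts and to 12896 to 16094 in vehicle hearts, with none at 0. Of 8 smooth muscle markers, 1 rose (Mylk, 0.73), and of 6 valve interstitial markers, another site of Postn, 0 passed in limma, 0 having an unadjusted p under 0.05 (median -0.05). Of 12 cardiomyocyte markers, 0 rose and 4 fell, Myh6 by 0.67, Atp2a2 by 0.68, Myl2 by 0.70 and Fabp3 by 0.54. The number that fell was 1 without vehicle 3, 1 without the 3 hearts of highest atrial score and 1 after quantile normalization, and it was 2 without oxaliplatin 3 or 4 or vehicle 1 or 2. Myl2 and Fabp3 each lost the call in 9 of 20 alternatives. The part of these cell types in the differences of the 10 genes was not tested.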

How the data were processed

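The authors deposited 1 table for whole hearts, whose values are normalized counts, treated here as a signal on the authors' scale. Per the submitters' processing notes, the tools were STAR 2.5.1a, Partek and DESeq2, with no roles stated. Per the labels, a SMARTer kit was used. The sources used here name no genome build, annotation or strand setting. Of values between 1 and 1000 estimated reads, 73.1% to 75.9% lay within 0.02 of a whole read, so reads were not recovered and no count test was run.

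The main test was limma (version 3.58.1, R version 4.3.3; trend and robust options switched on), fitted to log2(normalized count + 1) of every gene averaging 10 or more. This scale understates changes of low genes. Two-sided p-values were adjusted by Benjamini-Hochberg over all genes, with a threshold of 0.05. The fit was tested on simulated data. The 10 genes, the lists and the naming rule were chosen with earlier results of these data known. The rule named all 10 genes, each list's genes that passed (the 4 of smallest p where more did), and the 5 most like Meox1 by each measure, of which 1 is not reported here. Dcn, Lum, Gsn, Acta2, Col1a1, Fap, Meox2, Pdgfa, Pdgfb, Pdgfc, Tgfbi, the integrins, Abcc9, Adipoq, Cd4 and Trac were named after their values were seen. Exon lengths and coordinates are from GENCODE M21 (GRCm38), matched by symbol. Alternatives changed the pseudocount, filter, scaling, moderation, weights, block and samples.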

Additional observations from a re-analysis of the deposited data

Results flagged for a closer look

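None of the 10 genes had a heart that stood apart within its group. The screen took in 61 genes, the 10 and those that the naming rule took from the lists, in both groups (122 groups of samples). Genes picked only for their likeness to Meox1, such as Tagln2, were not screened, nor were list genes outside the rule, such as Dcn. Of the 61 genes, 4 had a heart whose gap to the next was a large part of the group's range, each time oxaliplatin 2. Such a screen marks about 1 in 20 groups by chance. Anxa3 had 1318 normalized counts in oxaliplatin 2 against 2030.5 to 2379 in the other oxaliplatin hearts. Sparc had 26218 there against 59328 to 79909.5 in the others. The pericyte markers Higd1b and Colec11 had 458 and 954 there, against 1142 to 1317 and 1628 to 1968 in the others.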

How the results depend on the processing

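Each result was recomputed under 20 alternatives, 9 of which left out 1 sample. Of 199 log2 differences of the 10 genes under these alternatives, 182 kept their sign and their side of the threshold, and Meox1, Dpep1, Pi16 and Dpt did so in all 20. The number of the 10 genes that rose, 6 as reported, lay between 4 and 7, and no alternative called any of them lower. Pdgfra had -0.20 and Scara5 -0.00568 without the 3 hearts of highest atrial score. With 1 sample left out Pdgfra ran from -0.0377 to 0.31 (-0.0105 without oxaliplatin 2) and Scara5 from -0.0325 to 0.18; the cause was not tested. The count of all genes that passed, 1966, was 3541 with array weights and 1110 (without vehicle 3) to 2388 with 1 sample left out. Higher genes made up 64.7% of calls as reported (1272 higher and 694 lower), 54.4% after quantile normalization (1151 and 965), 85.9% with the same total in each sample (1633 and 269) and 76.7% when rescaled without mitochondrial and globin genes (1355 and 411). With the same total the median log2 difference of all genes was 0.113 instead of -0.0207. Relative to the median the 10 genes ran from 0.122 for Pdgfra to 2.46 for Postn with either scaling. This had to be so, since the rescaling moves all log2 differences by nearly the same amount. Same-numbered hearts had deviations correlating at -0.273, -0.0636, -0.0935 and 0.25, and not every heart correlated best with its own number. Whether replicate numbers pair the samples cannot be read from these values, since other differences between hearts, such as atrial marker RNA, enter them too. With the replicate block, over the 8 hearts that share numbers, 1405 genes passed and 4 of the 10 rose, Postn (2.42) and Thy1 (0.91) not passing. Under the block 1 pericyte marker rose, against 4, and 2 epicardial markers, against 4, with Higd1b, Colec11, Msln and Krt18 among those not passing (limma adjusted p 0.0679, 0.0510, 0.144 and 0.0598). Thy1 also did not pass after quantile normalization (0.90). Of 880 counts of list genes, 789 stayed within 1.5 times. Counts that were 0 as reported and stayed 0 are among the 789, so this share says little about the counts above 0. The lowest counts are those of Thy1.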

Other observations

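Other lists were read beside the fibroblast genes. Of 16 proliferation genes, 14 rose and 0 fell, with a median log2 difference of 2.87, beside -0.02 over all genes tested. The spindle protein gene Tpx2 rose by 3.18, the topoisomerase gene Top2a by 2.97, the replication helicase gene Mcm3 by 1.32 and the thymidylate synthase gene Tyms by 1.10. Which cells carried these RNAs was not tested. Of the 2 B cell receptor genes in the table, 2 fell, with log2 differences of -3.04 for Cd79a and -2.18 for Cd79b. Only Cd79a was called without vehicle 1 or without vehicle 2 (limma adjusted p for Cd79b 0.0588 and 0.0781). Of 10 macrophage markers, Cd68 rose by 1.21, Cd14 fell by 0.93 and 8 did not pass. There, 3 markers rose without oxaliplatin 1 and 2 fell without oxaliplatin 3. Of 6 adipocyte markers, 1 rose, the fatty acid carrier gene Fabp4 (0.96), while 0 did without vehicle 1, 2 or 4 and 2 did without oxaliplatin 1. Fabp4 was highest in oxaliplatin 1 (49630.8 normalized counts), where Adipoq of the same list was lowest (3.58). In oxaliplatin 2 Fabp4 was the lowest of its group (20235.5) and Adipoq the highest (540). Which cells carried the Fabp4 RNA was not tested. Of 8 erythroid markers, 0 passed in limma with all samples, 6 had an unadjusted p under 0.05, and 6 fell without oxaliplatin 3 (median -2.79 with all samples). Of 4 Schwann cell markers 0 passed in limma and 0 had an unadjusted p under 0.05 (median -0.48).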
